A study of Mus musculus with 4 samples.

Results

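Galectins are a family of proteins that bind beta-galactoside sugars on glycoproteins and glycolipids. The 4 family members described here, Lgals1, Lgals3, Lgals8 and Lgals9, were found by gene symbol and are 4 of the 32285 genes counted in single cells of mouse spinal cord. They were measured by droplet-based sequencing of transcript 3' ends, counted as unique molecular identifiers (UMIs). Levels are given in CPM, the counts of a gene scaled to the total UMIs of its cell class in the same library; since 3' ends are counted, the scale does not depend on transcript length. Each of the 4 groups was 1 library from the pooled spinal cords of 2 mice, which were perfused with saline, dissociated and cleared of myelin. The P301S mice carry a human tau transgene with the P301S mutation, a model of tauopathy; the promoter that drives it is not given in the sources used here. The groups were P301S hom CD8 KO (30 weeks of age), P301S hom CD8 WT (33 weeks of age), the same genotype at 30 weeks, and P301S neg CD8 WT at 30 weeks; the labels write hom for homozygous and neg for negative. Below, P301S hom at 33 or at 30 weeks means CD8 WT, P301S neg is always CD8 WT at 30 weeks, and the P301S hom libraries are the 3 with the transgene, with values in the order of this list. Replicates and tests between groups were not possible with 1 library per group, and the 95% intervals (exact Poisson for CPM, exact conditional-binomial for ratios, Clopper-Pearson for shares) cover counting error only.

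Galectins are made without a signal peptide and are found in the cytosol, in the nucleus and, once released, outside cells, where they cross-link receptors and matrix. Galectin-1 (Lgals1) has 1 type of sugar-binding domain and forms dimers, galectin-3 (Lgals3, also known as the macrophage antigen Mac-2) joins such a domain to a flexible tail, and galectin-8 (Lgals8) and galectin-9 (Lgals9) each carry a pair of unlike domains. Inside cells, galectin-3 and galectin-8 bind sugars exposed on damaged lysosomes and endosomes. Galectin-9 is a ligand of the immune receptor TIM-3, encoded by Havcr2. In the central nervous system galectin-3 is known as a protein of activated microglia, the resident macrophages.

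All 4 are protein-coding genes, placed here on mm10 by the GENCODE M21 annotation. Lgals1 (ENSMUSG00000068220) lies on chromosome 15, 78926725 to 78930465, on the plus strand. Lgals3 (ENSMUSG00000050335) lies on chromosome 14, 47367751 to 47386160, on the plus strand. Lgals8 (ENSMUSG00000057554) lies on chromosome 13, 12439415 to 12464944, on the minus strand, and shares 875 bases with Heatr1 on the opposite strand. Because the strand setting of the counting is not given in the sources used here, reads from that overlap cannot be told apart, and each Lgals8 value carries this limit. Lgals9 (ENSMUSG00000001123) lies on chromosome 11, 78962974 to 78984946, on the minus strand.

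The promoters of Lgals3 and Lgals9 are shown because these genes went with different cell states in the results that follow. RefSeq's table on GRCm38.p6 held 3 of the 4 promoters, those of Lgals3, Lgals8 and Lgals9, as windows of 250 bases before to 50 bases after RefSeq's start. Each is printed 5′ to 3′ on the gene's strand: chr14:47373610-47373909 (plus strand) for Lgals3 and chr11:78984875-78985174 (minus strand) for Lgals9. Capitals mark matches of GGGCGG (GC box) in Lgals3 and of GAAA, any 2 bases and GAAA (the core of an interferon-stimulated response element, ISRE) in Lgals9, searched on both strands.
Lgals3: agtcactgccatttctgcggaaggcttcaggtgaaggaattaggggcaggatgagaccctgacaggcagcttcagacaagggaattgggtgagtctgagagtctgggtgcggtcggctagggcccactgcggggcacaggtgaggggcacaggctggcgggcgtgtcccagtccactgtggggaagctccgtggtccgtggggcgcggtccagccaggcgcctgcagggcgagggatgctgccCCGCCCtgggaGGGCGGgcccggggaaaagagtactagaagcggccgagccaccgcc
Lgals9: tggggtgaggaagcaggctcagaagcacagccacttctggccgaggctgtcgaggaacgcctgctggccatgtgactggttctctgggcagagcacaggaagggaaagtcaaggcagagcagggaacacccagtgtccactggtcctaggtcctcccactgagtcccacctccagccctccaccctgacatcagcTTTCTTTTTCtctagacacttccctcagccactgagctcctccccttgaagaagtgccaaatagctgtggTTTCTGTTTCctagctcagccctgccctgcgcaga

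The Lgals3 window held 2 GC boxes, at positions -7 and 5 from the start, and 35.7% of all 32851 promoters in the table held at least 1. The Lgals9 window held 2 ISRE cores, at positions -55 and 16, both on the strand opposite to the gene, and 3.44% of all promoters held at least 1. None of the 8 motifs searched was in the Lgals8 window. The other 6 were AP-1 (TGANTCA, in 7.81% of promoters), the E-box (CACGTG, 7.15%), the M-box (TCATGTG, 3.77%), a PU.1 core (GAGGAAGT, 3.20%), an NF-kB form (GGGAC followed by TTTCC, 0.155%) and the TATA box (TATAAA, 13.6%), and they were in none of these 3 windows. No motif of the 8 overlapped another in the windows shown. These are matches of letters and say nothing of binding.

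The libraries held 36331214 to 43531426 UMIs, and 20186 of 22644 barcodes were kept as cells, 4692 to 5640 in each, with median depths of 5254 to 7163 UMIs. Any pair of libraries shared 5 to 12 barcodes. Classes were named from markers, so macrophage-like cells include microglia and border macrophages; in them the 13 markers of the macrophage list summed to 37096 to 39944 CPM, with none at 0. Of the cells with a sex call from Xist and Y-linked UMIs, 4 were female and 3089 male in the library labelled CD8 KO, 1686 female and 1305 male in P301S hom at 33 weeks, 3723 female and 0 male in P301S hom at 30 weeks, and 2043 female and 1568 male in P301S neg, so sex moved with all 3 comparisons. Cd8a, a chain of the CD8 co-receptor, stood in T cell-like cells at 15.5 CPM in the library labelled CD8 KO, 190.4 CPM in P301S hom at 33 weeks, 269 CPM in P301S hom at 30 weeks and 232 CPM in P301S neg. In endothelial-like cells it was at 121 CPM in the library labelled CD8 KO and at 0 in the other libraries, so over all kept cells it was higher in that library, and the group is called by its label throughout.

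Lgals3 was the galectin that differed most between the libraries, and in P301S hom cords most of its UMIs were in macrophage-like cells. These cells held 88.1% of the library's Lgals3 UMIs in the library labelled CD8 KO, 73.5% in P301S hom at 33 weeks and 78.9% in P301S hom at 30 weeks, against 1.99% in P301S neg. In P301S neg, monocyte-like cells held 30.6% and neutrophil-like cells 29.2% of the gene's UMIs. Part of these shares is the number of cells: 2356, 1595 and 1949 macrophage-like cells in the P301S hom libraries in that order, and 1337 in P301S neg.

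**Figure D1:**
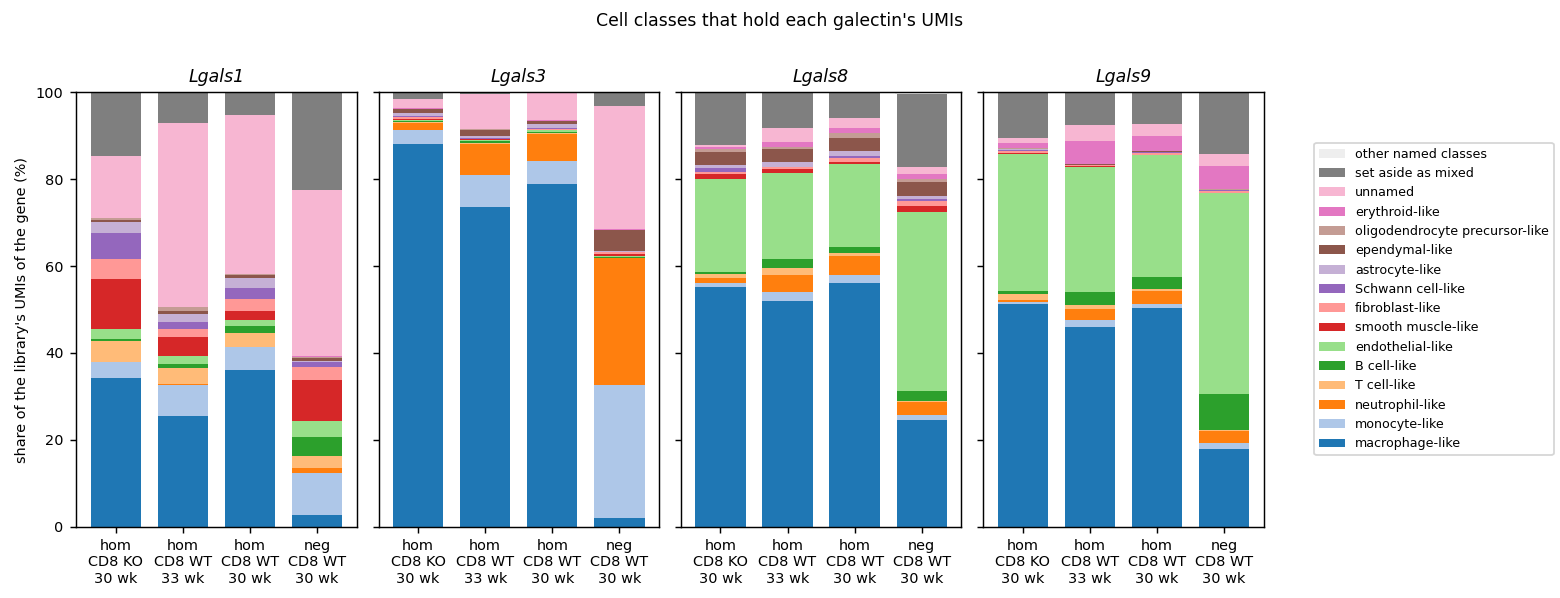
Share of each library's UMIs of a galectin (vertical axis, percent) by the cell class that holds them, 1 stacked bar per library. Macrophage-like cells hold 73.5% to 88.1% of Lgals3 UMIs in the P301S hom libraries and 1.99% in P301S neg.

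Across classes with at least 10 cells in every library, Lgals3 was highest in monocyte-like cells, with a mean of 2536 CPM over the 4 libraries and a range of 2420.2 to 2664 CPM. Astrocyte-like cells (mean 672 CPM, range 54.4 to 1119), macrophage-like cells (mean 647 CPM, range 16.7 to 924) and neutrophil-like cells (mean 574 CPM, range 516 to 669) followed, and their ranges overlapped, so their order is not set beyond the spread of the libraries. Monocyte-like and neutrophil-like cells kept a narrow range while macrophage-like and astrocyte-like cells did not. The lowest levels were in erythroid-like cells (mean 9.63 CPM) and endothelial-like cells (mean 9.19 CPM). In endothelial-like cells, which serve here as a measure of free RNA, 4.83% of cells had an Lgals3 UMI in the library labelled CD8 KO, 5.17% in P301S hom at 33 weeks, 6.04% in P301S hom at 30 weeks and 1.01% in P301S neg.

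Lgals1 had another order. Schwann cell-like cells were highest (mean 631 CPM, range 431 to 899.9), followed by smooth muscle-like cells (547 CPM, range 434 to 657), monocyte-like cells (435 CPM, range 394 to 457) and T cell-like cells (412 CPM, range 365 to 484), with overlapping ranges between neighbours. Schwann cells are the myelinating glia of peripheral nerve roots. Endothelial-like cells were low and even, at 8.39 CPM in the library labelled CD8 KO, 10.9 CPM in P301S hom at 33 weeks, 8.57 CPM in P301S hom at 30 weeks and 8.71 CPM in P301S neg. Neutrophil-like and erythroid-like cells were lowest (means of 5.98 and 2.06 CPM). Between 14.2% and 42.4% of a library's Lgals1 UMIs were in cells whose cluster stayed unnamed.

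Lgals8 was low in all of these classes. Its highest mean was 48.5 CPM in astrocyte-like cells (range 36.3 to 57.6), and its lowest were 16.9 CPM in neutrophil-like cells and 4.23 CPM in erythroid-like cells. The ranges of the 4 highest classes, astrocyte-like, oligodendrocyte precursor-like, Schwann cell-like and monocyte-like cells, overlapped. Most of these class levels rest on fewer than 40 UMIs a library.

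Lgals9 was highest in B cell-like cells (mean 205 CPM, range 152 to 294) and endothelial-like cells (186 CPM, range 167 to 206), whose ranges overlapped. Macrophage-like cells (119 CPM, range 109.6 to 137) and T cell-like cells (106 CPM, range 52.7 to 191) came next, and the range of macrophage-like cells lay below that of endothelial-like cells. It was the only one of the 4 genes at over 100 CPM in endothelial-like cells. Ependymal-like cells, the ciliated lining of the central canal, were lowest (mean 5.16 CPM, range 4.09 to 6.85).

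**Figure D2:**
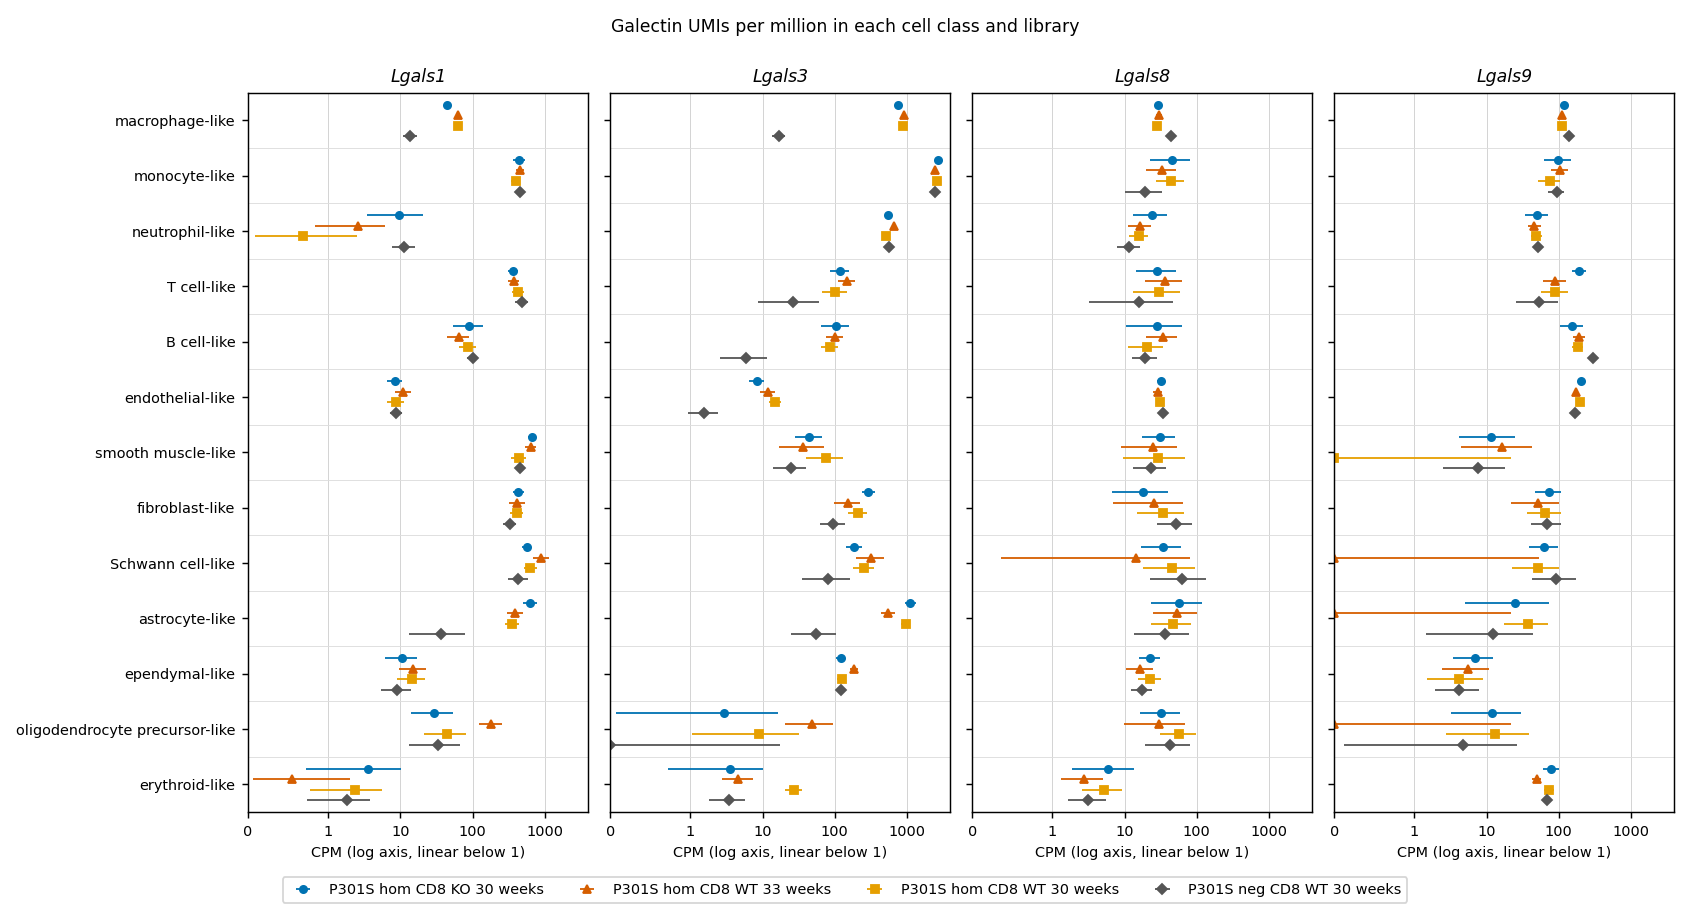
CPM (horizontal log axis, linear below 1) of each galectin in each cell class, with 1 point per library and bars for the 95% counting interval. Lgals3 in macrophage-like cells stands at 762 to 924 CPM in the P301S hom libraries and 16.7 CPM in P301S neg, while its monocyte-like points lie together.

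The first comparison set the homozygous transgene against its absence at 30 weeks. In macrophage-like cells, Lgals3 was 886 CPM (874 to 899) from 18663 UMIs in P301S hom at 30 weeks, against 16.7 CPM (13.7 to 20.2) from 106 UMIs in P301S neg. The log2 ratio was 5.73 (5.45 to 6.02), a 53.0-fold higher level. Of the macrophage-like cells, 68.5% had an Lgals3 UMI in P301S hom at 30 weeks and 2.39% in P301S neg. With each cell thinned to 1000 UMIs the shares were 33.1% and 0.839%, in the same order, and the thinned endothelial-like shares were 1.62% and 0.177%. Macrophage-like cells were above the share measured in endothelial-like cells in both libraries, by far more in P301S hom.

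Lgals1 moved the same way and by less. It was 62.5 CPM (59.2 to 66.0) in macrophage-like cells of P301S hom at 30 weeks, against 13.6 CPM (10.9 to 16.8) in P301S neg, a log2 ratio of 2.20 (1.89 to 2.54). Lgals8 was 28.6 CPM in P301S hom at 30 weeks, against 43.6 CPM in P301S neg, with a log2 ratio of -0.61 (-0.82 to -0.40). Lgals9 was 111 CPM in P301S hom at 30 weeks, against 137 CPM in P301S neg, with a log2 ratio of -0.31 (-0.42 to -0.19) that turned to 0.06 with trimmed-mean (TMM) scaling.

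The median of all 11801 genes measured in these cells, those with at least 20 UMIs over both libraries, was itself -0.37 on the log2 scale, and TMM scaling moved every ratio up by 0.36. At 1.5-fold, 2 of the 4 galectins were higher (Lgals1 and Lgals3), where 11.4% of all genes were, and 1 was lower (Lgals8), where 36.2% of all genes were. With TMM scaling 2358 genes were higher and 2180 lower, in place of 1340 and 4267, and Lgals8, at -0.24, no longer passed 1.5-fold. The lower value of Lgals8 was thus within what much of the transcriptome of these cells showed.

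Among female macrophage-like cells, Lgals3 was 873 CPM in P301S hom at 30 weeks, against 21.6 CPM in P301S neg, a log2 ratio of 5.34. Female cells gave 61.3 CPM of Lgals1 in P301S hom at 30 weeks, against 18.7 CPM in P301S neg, a log2 ratio of 1.71. Both ratios were smaller than those over all cells. Male macrophage-like cells of P301S neg had 6.65 CPM of Lgals3 (14 UMIs) and 3.80 CPM of Lgals1 (8 UMIs), below the female cells of the same library.

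**Figure D3:**
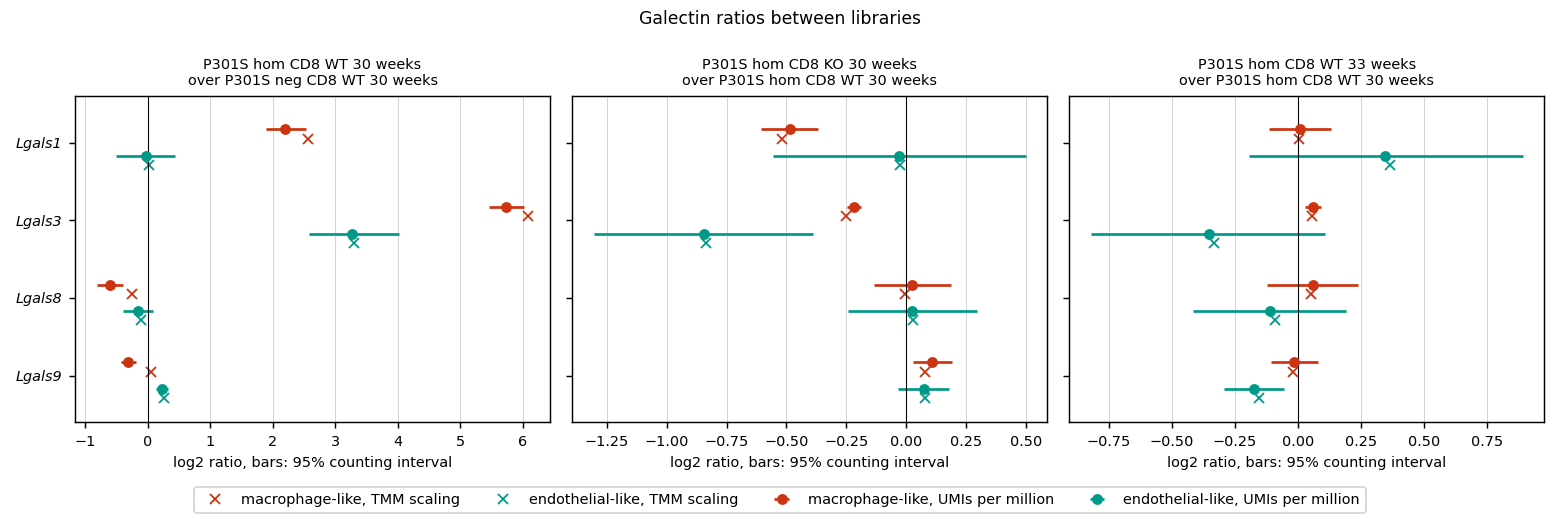
Log2 ratios (horizontal axis) of the 4 galectins in macrophage-like and endothelial-like cells for the 3 comparisons, 1 panel each; circles are CPM ratios with 95% counting intervals and crosses TMM scaling. The Lgals3 and Lgals1 ratios of P301S hom over P301S neg in macrophage-like cells (5.73 and 2.20) stand apart from the other macrophage-like values, which lie between -0.61 and 0.11.

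Outside macrophage-like cells, the cells that had Lgals3 in P301S neg showed little difference. Monocyte-like cells had 2597 CPM in P301S hom at 30 weeks and 2420.2 CPM in P301S neg, a log2 ratio of 0.10 (-0.01 to 0.21). Neutrophil-like cells had 516 CPM in P301S hom at 30 weeks and 562 CPM in P301S neg (log2 ratio -0.12, -0.23 to -0.02), and ependymal-like cells 125 CPM in P301S hom at 30 weeks and 121 CPM in P301S neg (0.05, -0.23 to 0.33). Several classes that were low in P301S neg had higher values in P301S hom: the log2 ratio of Lgals3 was 3.26 in endothelial-like, 2.99 in erythroid-like, 1.94 in T cell-like, 1.63 in smooth muscle-like and 1.62 in Schwann cell-like cells. These rest on 13 to 100 UMIs of P301S hom at 30 weeks and 5 to 21 UMIs of P301S neg, and 10 of the 27 T cell-like UMIs were in 1 cell. In B cell-like cells (log2 ratio 3.84) 45 of the 59 Lgals3 UMIs of P301S hom at 30 weeks were in 1 cell, which leaves 14 UMIs, against 8 UMIs in 8 cells of P301S neg. In fibroblast-like cells (1.14) 32 of 49 were in 1 cell, which leaves 17 UMIs. P301S neg had 26 UMIs there, and 15 without its highest cell. Such counts are not scaled to the class totals, which were larger in P301S neg for B cell-like and fibroblast-like cells. In endothelial-like cells, 1 of the 4 galectins was at least 1.5-fold higher (Lgals3), where 4.58% of all genes were, and none was lower, where 6.48% were. These calls depended on the clustering: at a Leiden resolution of 0.5 the endothelial-like ratio was 0.57 for Lgals3, short of 1.5-fold, and -0.74 for Lgals1, past 1.5-fold lower, in place of 3.26 and -0.02. The mean of per-cell CPM gave 2.35 for Lgals3. Lgals9 in endothelial-like cells was 196 CPM in P301S hom at 30 weeks, against 167 CPM in P301S neg, a log2 ratio of 0.23 (0.13 to 0.33). In B cell-like cells Lgals9 was 184 CPM in P301S hom at 30 weeks, against 294 CPM in P301S neg, a log2 ratio of -0.68 (-0.98 to -0.38), where the median of all genes was -0.43. The cluster of B cell-like cells with the lowest Lgals9 held 64 of 142 cells in P301S hom at 30 weeks and 74 of 327 in P301S neg. Within that cluster Lgals9 was 54.4 CPM in P301S hom at 30 weeks, against 55.8 CPM in P301S neg, and within the cluster with the highest level it was 517 CPM in P301S hom at 30 weeks, against 563 CPM in P301S neg. In the third it was 109 CPM (78.2 to 148) in P301S hom at 30 weeks, against 183 CPM (152 to 217) in P301S neg, so intervals were apart in 1 of the 3 clusters.

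Macrophage RNA in those classes moved with these values. In endothelial-like cells, the 13 macrophage markers summed to 583 CPM in P301S hom at 30 weeks and 155 CPM in P301S neg, with none at 0. The level of Lgals3 there was 1.70% of the macrophage-like level in P301S hom at 30 weeks, beside 1.40% for C1qa, C1qb and C1qc together, the complement genes of macrophages. In the library labelled CD8 KO these percentages were 1.10% and 1.28%, and in P301S hom at 33 weeks 1.27% and 0.88%. In the P301S hom libraries both thus stood at 0.88% to 1.70% of their macrophage-like level. In P301S neg, where the macrophage-like level of Lgals3 was itself low, they were 9.35% for Lgals3 (21 UMIs) and 0.29% for C1q. Endothelial-like cells without any C1q UMI had 8.90, 9.47 and 10.1 CPM of Lgals3 in the P301S hom libraries, in the order of the opening list. In P301S neg such cells had 1.40 CPM (0.75 to 2.40) from 13 UMIs, against 10.1 CPM (6.77 to 14.5) in P301S hom at 30 weeks. The part of macrophage RNA in the Lgals3 value was not tested.

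In ependymal-like cells the 2 measures parted. Lgals3 was at 15.9% of the macrophage-like level in the library labelled CD8 KO, 20.04% in P301S hom at 33 weeks and 14.1% in P301S hom at 30 weeks, while C1q was at 1.42%, 1.93% and 1.04% in the same order. Ependymal-like cells without any C1q UMI still had 111 CPM of Lgals3 in the library labelled CD8 KO, 151 CPM in P301S hom at 33 weeks, 110.5 CPM in P301S hom at 30 weeks and 119 CPM in P301S neg. B cell-like cells without C1q UMIs, by contrast, had 3, 5 and 7 Lgals3 UMIs in the P301S hom libraries in that order. P301S neg had 8 such UMIs. Over all B cell-like cells there were 22, 53 and 59 UMIs in the P301S hom libraries and 8 in P301S neg. Most of the Lgals3 UMIs of B cell-like cells in P301S hom libraries were therefore in cells that also had C1q UMIs. Scaled to their totals, B cell-like cells without C1q UMIs had 24.98, 17.2 and 21.9 CPM of Lgals3 in the P301S hom libraries in that order. In P301S neg they had 7.69 CPM (3.32 to 15.2), so each P301S hom value was higher. The intervals overlapped, as with 8.81 to 45.1 CPM in P301S hom at 30 weeks.

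**Figure D4:**
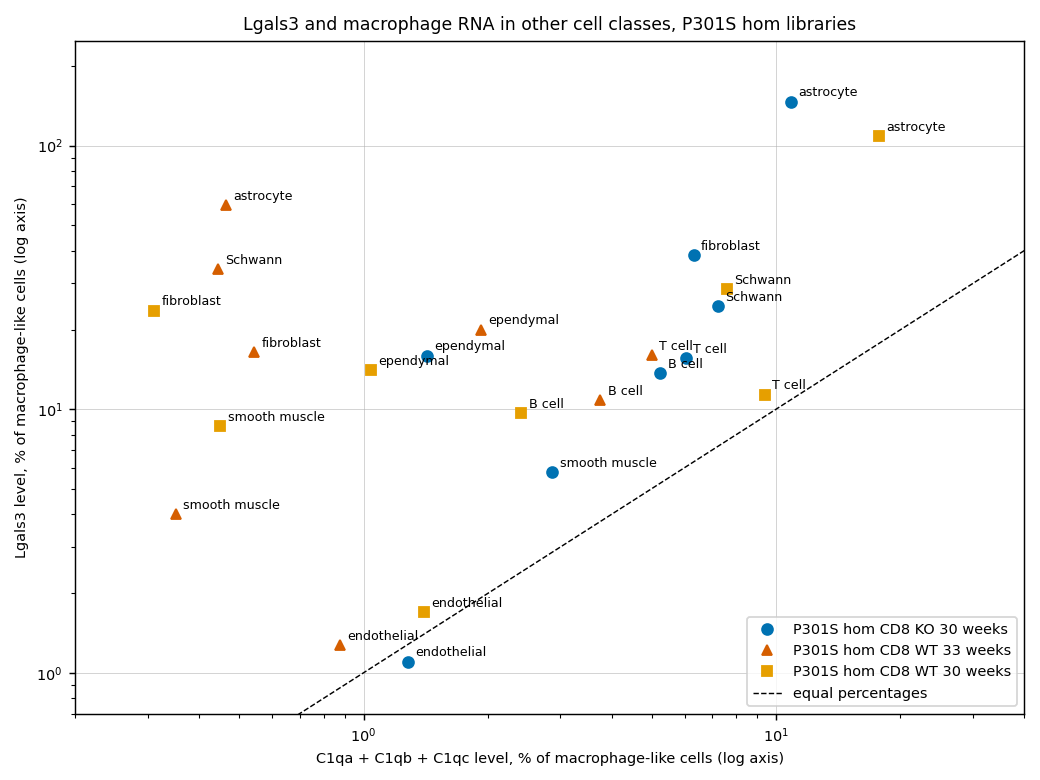
Lgals3 level (vertical log axis) against the summed C1q level (horizontal log axis), each as a percent of the level in macrophage-like cells of the same library, for the other cell classes of the P301S hom libraries; the dashed line marks equal percentages. Endothelial-like points lie near the line (1.10% to 1.70% of Lgals3) and ependymal-like points well above it (14.1% to 20.04%).

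Astrocyte-like cells were few, and their galectin values rest on small counts. They numbered 25 in the library labelled CD8 KO, 34 in P301S hom at 33 weeks, 36 in P301S hom at 30 weeks and 41 in P301S neg. Lgals3 was 1119 CPM (136 UMIs) in the library labelled CD8 KO and 550.2 CPM (92 UMIs) in P301S hom at 33 weeks. It was 963 CPM (229 UMIs) in P301S hom at 30 weeks and 54.4 CPM (9 UMIs) in P301S neg. These UMIs were in 12, 22 and 20 cells of the P301S hom libraries in that order and in 3 of P301S neg. The highest single cell held 49, 25 and 69 of them in the P301S hom libraries. Lgals1 was 634, 389 and 353 CPM in the P301S hom libraries in that order and 36.3 CPM in P301S neg. All P301S hom libraries were above P301S neg for both genes, with log2 ratios at 30 weeks of 4.15 (3.20 to 5.29) for Lgals3 and 3.28 (2.10 to 4.77) for Lgals1.

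Macrophage markers were present in these cells too, at 4832 CPM in the library labelled CD8 KO, 287 CPM in P301S hom at 33 weeks, 6828 CPM in P301S hom at 30 weeks and 3922 CPM in P301S neg, with 4, 7, 4 and 3 of the 13 at 0 in that order (Pf4, Cd163 and Lyve1 in every library). At 33 weeks, where the macrophage sum was smallest, C1q was 0.47% and Lgals3 59.6% of the macrophage-like level. Astrocyte-like cells without any C1q UMI had 388 CPM of Lgals3 in 13 cells of the library labelled CD8 KO, 645 CPM in 21 cells of P301S hom at 33 weeks, 2302 CPM in 18 cells of P301S hom at 30 weeks and 27.9 CPM in 30 cells of P301S neg. In UMIs these were 14, 65 and 172 in the P301S hom libraries in that order, from 5, 13 and 10 cells. P301S neg had 3, all in 1 cell. Gfap, the intermediate filament of reactive astrocytes, was also higher in astrocyte-like cells of the P301S hom libraries. It stood at 4329.8, 5789 and 4717 CPM there in the same order and at 338 CPM in P301S neg. Among the P301S hom libraries its order differed from that of both galectins.

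The macrophage-like cells were split into sub-clusters made without any galectin gene, and states were named from marker lists. Disease-associated microglia-like cells, with Gpnmb, a membrane glycoprotein of lipid-loaded macrophages, among their markers, numbered 937 in the library labelled CD8 KO, 700 in P301S hom at 33 weeks, 955 in P301S hom at 30 weeks and 10 in P301S neg. Homeostatic microglia-like cells, led by Crybb1, P2ry12 and Tmem119, numbered 280, 195 and 193 in the P301S hom libraries in that order and 1020 in P301S neg. States are clusters of the same cells, so their differences are a description without a test.

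Lgals3 went with the disease-associated state. In disease-associated microglia-like cells it stood at 1217 CPM in the library labelled CD8 KO, 1425 CPM in P301S hom at 33 weeks, 1283 CPM in P301S hom at 30 weeks and 900 CPM (42 UMIs) in P301S neg. In homeostatic microglia-like cells it was 16.2, 14.0 and 22.7 CPM in the P301S hom libraries in that order and 2.56 CPM in P301S neg. Within the disease-associated state the ratio of P301S hom at 30 weeks over P301S neg was 1.43-fold (1.05 to 1.98). Within the homeostatic state it was 8.86-fold (4.37 to 18.6), and both were far below the 53.0-fold of the whole class. Endothelial-like cells, the measure of free RNA used here, had 15.04 CPM of Lgals3 in P301S hom at 30 weeks and 1.56 CPM in P301S neg. The part of free RNA in the homeostatic values was not tested. The P301S neg side of the disease-associated ratio rests on 2 cells. Both were in the sub-cluster led by Mmp12 and held all 42 UMIs (1520 CPM). The other 8 were in another disease-associated sub-cluster and had 0 Lgals3 UMIs, which allows up to 194 CPM (95% interval), against 827 CPM in 195 cells of P301S hom at 30 weeks in the same sub-cluster.

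Among the disease-associated sub-clusters, the one led by Mmp12, Gpnmb and Spp1 was highest, at 2079 CPM of Lgals3 in the library labelled CD8 KO, 2372 CPM in P301S hom at 33 weeks and 2173 CPM in P301S hom at 30 weeks. Mmp12 encodes a macrophage elastase and Spp1 osteopontin. The one led by MHC class II genes (H2-Aa, H2-Eb1, H2-Ab1) was lowest of the disease-associated ones, at 497 CPM in the library labelled CD8 KO, 352 CPM in P301S hom at 33 weeks and 521 CPM in P301S hom at 30 weeks. A sub-cluster led by Il1rn and Tnfsf9, with Il1b among its leading genes, had 188, 194 and 188 CPM in the P301S hom libraries in that order. Interferon-responsive macrophage-like cells had 563, 143 and 469 CPM in the same order. Lgals3 was therefore uneven between sub-clusters of the P301S hom macrophage-like cells. A sub-cluster of low UMI count, which had no state name and Lgals1 and Lgals3 among its leading genes, had 1373, 984 and 1282 CPM of Lgals3 in the P301S hom libraries and 49.7 CPM in P301S neg.

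The other galectins went with other states. Lgals1 was highest in border-associated macrophage-like cells, which line vessels and meninges, at 199.6 CPM in the library labelled CD8 KO, 317 CPM in P301S hom at 33 weeks, 317 CPM in P301S hom at 30 weeks and 344 CPM in P301S neg. In disease-associated microglia-like cells it was 61.5, 89.1 and 86.3 CPM in the P301S hom libraries in that order, and in homeostatic ones 2.03, 1.08 and 2.96 CPM in those and 2.92 CPM in P301S neg. Lgals9 was highest in interferon-responsive macrophage-like cells, led by Ifit3, Rsad2 and Ifit2, at 251, 267 and 221 CPM in the P301S hom libraries in that order and 332 CPM in P301S neg, although these were only 79, 20, 32 and 8 cells. In disease-associated microglia-like cells Lgals9 was 102, 99.4 and 101 CPM in the P301S hom libraries and 107 CPM in P301S neg. Lgals8 was 28.2, 25.9 and 26.7 CPM in disease-associated and 35.9, 48.5 and 46.3 CPM in homeostatic microglia-like cells of the P301S hom libraries, and 44.6 CPM in homeostatic ones of P301S neg. Homeostatic microglia-like cells had 147, 113 and 165 CPM of Lgals9 in the P301S hom libraries and 138 CPM in P301S neg, so both Lgals8 and Lgals9 were higher there than in the disease-associated state in each library of P301S hom, though the intervals overlapped for Lgals9 at 33 weeks and for Lgals8 in the library labelled CD8 KO. These state levels are CPM without TMM scaling, and no median of all genes between states is set beside them.

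**Figure D5:**
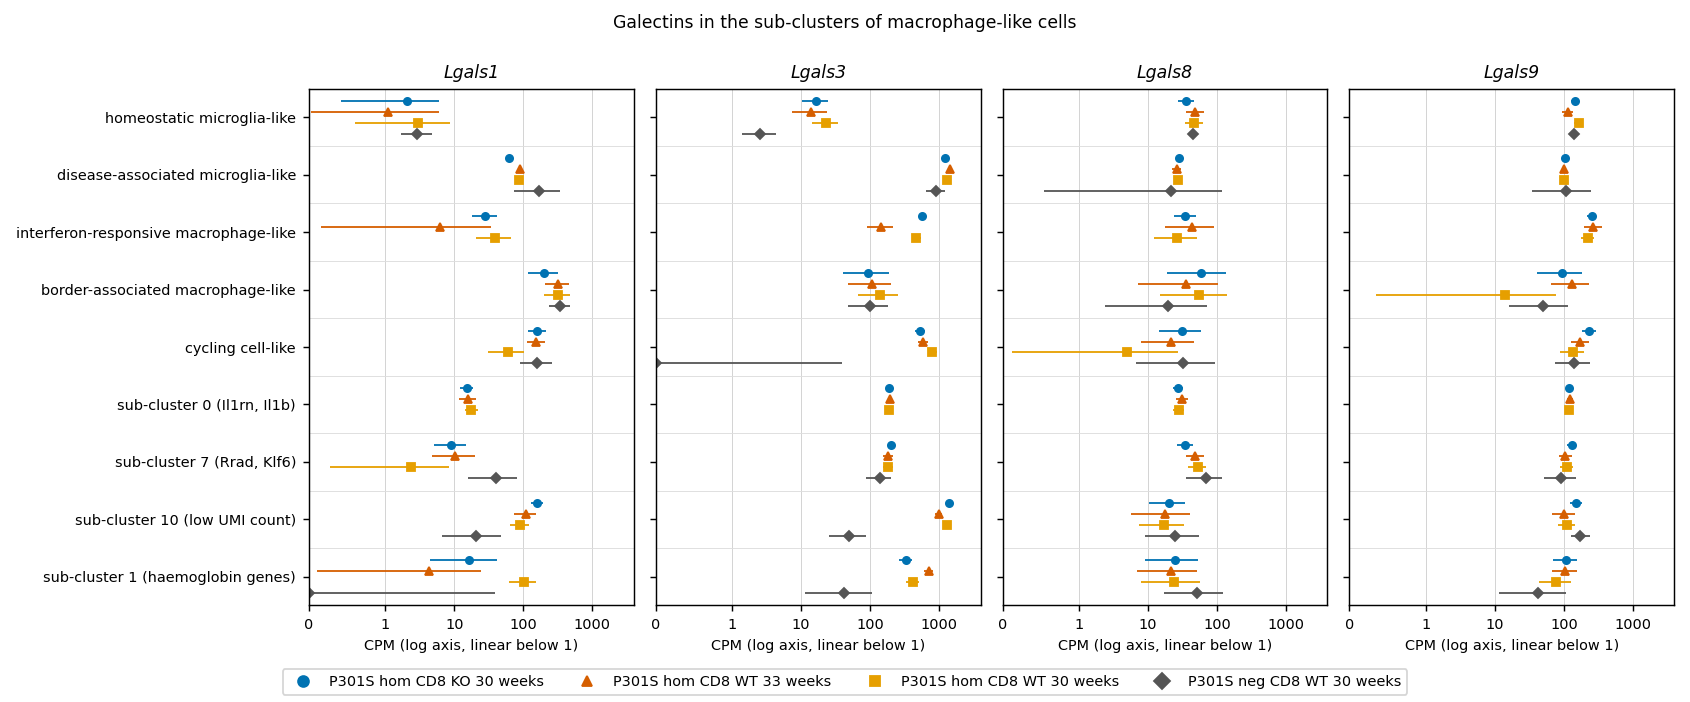
CPM (horizontal log axis, linear below 1) of each galectin in the sub-clusters of macrophage-like cells, 1 point per library with its 95% counting interval. Lgals3 spans 14.0 CPM in homeostatic microglia-like cells of P301S hom at 33 weeks to 1425 CPM in disease-associated ones, while in P301S hom at 30 weeks Lgals9 is 101 CPM in disease-associated and 165 CPM in homeostatic ones.

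The pairing was also looked at within single cells, with all macrophage-like cells thinned to 1000 UMIs, and its strength differed between markers. Lgals3 was detected in 62.1% of Gpnmb-positive and 23.1% of Gpnmb-negative cells in the library labelled CD8 KO, in 61.8% and 20.6% in P301S hom at 33 weeks, and in 61.0% and 23.9% in P301S hom at 30 weeks. In P2ry12-positive cells, which carry this purinergic receptor of homeostatic microglia, it was detected in 12.1%, 9.91% and 10.3% in the same order. In P2ry12-negative cells the shares were 35.7%, 38.4% and 39.5%. By Cst7, also on the disease-associated list, Lgals3 parted less, in 34.5% of positive and 24.6% of negative cells in the library labelled CD8 KO. These shares were 33.9% and 28.8% in P301S hom at 33 weeks, and 37.4% and 29.2% in P301S hom at 30 weeks. By Spp1 the shares were 43.8% and 15.7%, 50.1% and 17.0%, and 47.9% and 15.5% in the same order. By Apoe, also on that list, they were 31.3% and 1.34%, 32.2% and 1.28%, and 34.4% and 2.60%. Apoe-negative cells were few, at 149, 78 and 77 cells in the same order. Lgals1 was more often detected in cells with Lgals3: in 6.34% against 1.78% of cells without it in the library labelled CD8 KO, 7.59% against 2.79% in P301S hom at 33 weeks, and 7.87% against 1.56% in P301S hom at 30 weeks.

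The second comparison asked what the CD8 KO label went with in P301S hom cords at 30 weeks; it shares its CD8 WT library with the other comparisons. In macrophage-like cells, the library labelled CD8 KO had 762 CPM of Lgals3 (751 to 773), against 886 CPM (874 to 899) in P301S hom CD8 WT, a log2 ratio of -0.22 (-0.25 to -0.19). For Lgals1 the library labelled CD8 KO had 44.6 CPM (41.9 to 47.4), against 62.5 CPM (59.2 to 66.0) in P301S hom CD8 WT, a log2 ratio of -0.49 (-0.61 to -0.37). Lgals8 was 29.1 CPM in the library labelled CD8 KO and 28.6 CPM in P301S hom CD8 WT (log2 ratio 0.03, -0.14 to 0.19), and Lgals9 was 119.5 CPM in the library labelled CD8 KO and 111 CPM in P301S hom CD8 WT (0.11, 0.03 to 0.19). None of the 4 passed 1.5-fold in either direction, where 4.49% of all genes were higher and 2.79% lower.

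Over the disease-associated state Lgals1 was at 0.71-fold (0.65 to 0.78), whereas Lgals3 there was at 0.95-fold (0.93 to 0.97). The Lgals1 ratio was uneven between sub-clusters: it was at 0.64-fold (0.56 to 0.73) in the disease-associated one led by Mmp12 and 0.98-fold (0.82 to 1.16) in the one led by Gpnmb and Apoc4, but at 1.80-fold (1.24 to 2.66) in the sub-cluster of low UMI count and 2.68-fold (1.40 to 5.56) in the 18 cycling cells of the library labelled CD8 KO against 12 in P301S hom CD8 WT. Most of the kept cells with a call in the library labelled CD8 KO were male, and all of those in P301S hom at 30 weeks were female. Male macrophage-like cells gave 769.6 CPM of Lgals3 and 43.3 CPM of Lgals1 in the library labelled CD8 KO, against 1019 CPM and 70.4 CPM in male cells of P301S hom at 33 weeks; these differ in age as well. Both genes were lower in the library labelled CD8 KO in that comparison too, with log2 ratios of -0.40 for Lgals3 and -0.70 for Lgals1.

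In endothelial-like cells, the library labelled CD8 KO had 8.39 CPM of Lgals3 (6.54 to 10.6), against 15.04 CPM (12.2 to 18.3) in P301S hom CD8 WT, a log2 ratio of -0.84 (-1.30 to -0.39). It was the 1 galectin past 1.5-fold lower, where 3.85% of all genes were, and none was higher, where 3.03% were. As the mean of per-cell CPM the ratio was -0.36, short of 1.5-fold. Among endothelial-like cells without C1q UMIs, those labelled CD8 KO had 8.90 CPM of Lgals3 (5.96 to 12.8) and those of P301S hom CD8 WT 10.1 CPM (6.77 to 14.5), from 29 UMIs each. The macrophage marker sum in these cells was 552 CPM in the library labelled CD8 KO and 583 CPM in P301S hom CD8 WT, with none of the 13 at 0. Genes of disease-associated microglia moved with Lgals3 there: Gpnmb was 3.71 CPM in the library labelled CD8 KO, against 10.1 CPM in P301S hom CD8 WT, and Spp1 was 35.5 CPM in the library labelled CD8 KO, against 77.3 CPM in P301S hom CD8 WT. Their part in the Lgals3 value was not tested. Lgals9 in endothelial-like cells was 206 CPM in the library labelled CD8 KO and 196 CPM in P301S hom CD8 WT (log2 ratio 0.07, -0.03 to 0.18). In T cell-like cells, Lgals9 was 191 CPM (74 UMIs) in the library labelled CD8 KO, against 89.6 CPM (24 UMIs) in P301S hom CD8 WT. The log2 ratio was 1.10 (0.41 to 1.83), and 12 of the 74 UMIs were in 1 cell. T cell-like cells without C1q UMIs had 134 CPM (79.6 to 212) from 18 UMIs in the library labelled CD8 KO. In P301S hom CD8 WT they had 79.5 CPM (43.5 to 133) from 14 UMIs, so these intervals overlapped. Lgals1 in smooth muscle-like cells was 657 CPM in the library labelled CD8 KO, against 434 CPM in P301S hom CD8 WT, a log2 ratio of 0.60 (0.23 to 0.98).

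The third comparison set 33 weeks against 30 weeks in P301S hom CD8 WT cords. In macrophage-like cells the 4 galectins were close: Lgals3 was 924 CPM (908 to 940) at 33 weeks, against 886 CPM (874 to 899) at 30 weeks, a log2 ratio of 0.06 (0.03 to 0.09). That of Lgals1 was 0.01 (-0.12 to 0.13), that of Lgals8 was 0.06 (-0.12 to 0.24), and that of Lgals9 was -0.02 (-0.11 to 0.08). None passed 1.5-fold in these cells, where 3.15% of all genes were higher and 3.05% lower, nor in endothelial-like cells, where 2.92% were higher and 5.18% lower. The endothelial-like ratios moved with the setting, however. For Lgals3 it was -0.35 over all cells, -1.18 among female cells (6.75 CPM from 13 UMIs at 33 weeks, against 15.3 CPM from 95 UMIs at 30 weeks) and 0.29 as the mean of per-cell CPM, and for Lgals1 0.35 and, by that mean, 0.85. Female macrophage-like cells alone gave 841 CPM of Lgals3 at 33 weeks, against 873 CPM at 30 weeks, which turned the small ratio to -0.05.

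Other classes differed more between the ages. Ependymal-like cells had 185 CPM of Lgals3 (164 to 209) at 33 weeks, against 125 CPM (107 to 144) at 30 weeks, a log2 ratio of 0.57 (0.29 to 0.85). Female ependymal-like cells alone, at 128 CPM at 33 weeks and 126 CPM at 30 weeks, did not show this difference, and male cells at 33 weeks had 196 CPM. Neutrophil-like cells had 669 CPM of Lgals3 (633 to 706) at 33 weeks, against 516 CPM (489.9 to 543) at 30 weeks, a log2 ratio of 0.37 (0.27 to 0.48); among female cells alone the values were 495 CPM at 33 weeks and 391 CPM at 30 weeks. Lgals9 in endothelial-like cells was 174 CPM at 33 weeks, against 196 CPM at 30 weeks, with a log2 ratio of -0.17 (-0.29 to -0.05). Lgals1 in oligodendrocyte precursor-like cells was 179.6 CPM (30 UMIs in 52 cells) at 33 weeks, against 44.1 CPM (10 UMIs in 38 cells) at 30 weeks, a log2 ratio of 2.03 (0.95 to 3.22).

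Genes of galectin biology were then counted in macrophage-like cells, each list beside the median of all genes. Of 18 galectin ligands and receptors, 16 were measured for P301S hom at 30 weeks over P301S neg: 4 were at least 1.5-fold higher and 4 lower, and their median log2 ratio was -0.02, against -0.37 for all genes. Over all genes 11.4% were higher and 36.2% lower, against which this and the next 2 lists are to be read. Cd44, a receptor for hyaluronan, was 67.6 CPM in P301S hom at 30 weeks, against 6.47 CPM in P301S neg (log2 ratio 3.38). Lgals3bp, a secreted glycoprotein that binds galectin-3, was 431 CPM in P301S hom at 30 weeks, against 107 CPM in P301S neg (2.01). Tlr4, a receptor for lipopolysaccharide, was 9.88 CPM in P301S hom at 30 weeks, against 24.5 CPM in P301S neg (-1.31), and Havcr2 66.1 CPM in P301S hom at 30 weeks, against 124 CPM in P301S neg (-0.91). Cd44, Lgals3bp, Tlr4 and Havcr2 had the largest ratios of the list.

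Of 16 glycan enzymes that make or mask galectin ligands, 15 were measured, with 2 higher, 6 lower and a median of -0.33. The largest ratios were those of Gcnt2 (1.56), which branches polylactosamine chains, St3gal6 (-1.47) and St3gal4 (-0.93), which cap galactose with sialic acid, and Mgat1 (-1.25), which begins complex N-glycans. Of 22 genes of the response to damaged lysosomes, 18 were measured, with 2 higher, 5 lower and a median of -0.11. Tfe3, a transcription factor of lysosomal genes, was 91.2 CPM in P301S hom at 30 weeks, against 236 CPM in P301S neg (-1.37), and Tecpr1, a sensor of damaged lysosomal membranes, was 34.2 CPM in P301S hom at 30 weeks, against 14.0 CPM in P301S neg (1.29). Yod1, a deubiquitinase, and Optn, an autophagy receptor, had -1.05 and 0.78. With TMM scaling the medians of the 3 lists were 0.34, 0.03 and 0.25, so the signs of these medians turned with the scaling.

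The disease-associated and homeostatic lists moved far more. Over all genes in these cells 11.4% were higher and 36.2% lower, with a median of -0.37. All 11 measured genes of the 12 on the disease-associated list were at least 1.5-fold higher in P301S hom at 30 weeks than in P301S neg, with a median log2 ratio of 4.49, and all 8 homeostatic genes were lower, with a median of -2.40. The ratios of Gpnmb (9.42), Igf1 (6.71), Spp1 (6.08) and Fabp5 (5.73) were the largest of the first list, and Lgals3, not itself on the list, was at 5.73. Igf1 is a growth factor, and Fabp5 a fatty acid carrier. Crybb1 (-3.66), Slc2a5 (-2.98), P2ry12 (-2.79) and Tmem119 (-2.60) had the largest of the second. In the interferon list, 2 of 9 were higher and 4 lower. Its median of -0.51 (-0.15 with TMM scaling) was near the -0.37 of all genes. Ifi204 (1.47), Ifit3 (-1.17), Rsad2 (-1.16) and Oasl2 (0.95) were the largest.

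In the library labelled CD8 KO against P301S hom CD8 WT, where 4.49% of all genes were higher and 2.79% lower, none of the 16 ligands and receptors and none of the 18 lysosomal damage genes passed 1.5-fold, with medians of 0.07 and 0.03 against 0.03 for all genes. Of the 15 glycan enzymes 1 was lower, St3gal1 (3.74 CPM in the library labelled CD8 KO, against 5.75 CPM in P301S hom CD8 WT; log2 ratio -0.62). Of the 11 disease-associated genes 1 was lower, Gpnmb (log2 ratio -0.83), and of the 8 homeostatic genes 1 was higher, Crybb1 (0.67). The interferon list moved most: 8 of 9 genes were higher, with a median of 0.83, led by Rsad2 (25.5 CPM in the library labelled CD8 KO, against 4.08 CPM in P301S hom CD8 WT; 2.64), Ifit2 (14.1 CPM in the library labelled CD8 KO, against 3.51 CPM in P301S hom CD8 WT), Ifit3 (1.77) and Ifit1 (1.57). Lgals9 stood at 0.11 in the same cells.

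For 33 weeks over 30 weeks, none of the measured genes of the ligand, glycan enzyme, lysosomal damage and disease-associated lists passed 1.5-fold in macrophage-like cells, where 3.15% of all genes were higher and 3.05% lower. In the homeostatic list Crybb1 was higher (1.04), and in the interferon list Ifit1 (0.66). The medians of the ligand, glycan enzyme, lysosomal damage, disease-associated, homeostatic and interferon lists were 0.00, -0.01, -0.02, -0.22, 0.16 and -0.15 in that order, against 0.01 for all genes.

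In endothelial-like cells, 6 of 13 measured ligands and receptors were higher and 1 lower in P301S hom at 30 weeks over P301S neg, with a median of 0.22 against -0.04 for all genes, of which 4.58% were higher and 6.48% lower. The largest was Trem2, a microglial receptor, at 42.4 CPM in P301S hom at 30 weeks, against 6.56 CPM in P301S neg (2.69), next to the higher macrophage marker sum given above. Of the other galectin genes, Lgalsl was 45.6 CPM in P301S hom at 30 weeks and 38.7 CPM in P301S neg in these cells (0.24), and Lgals4 5.56 CPM in P301S hom at 30 weeks and 4.69 CPM in P301S neg (0.25). Over all kept cells Lgals2, Lgals7 and Grifin had 34, 22 and 4 UMIs in the 4 libraries together, and Lgals12 had none. Lgals6 was not among the genes of the tables used here.

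Finally, the genes whose levels were most like those of each member were found over 35 points, each a class of at least 50 cells in a library, among 7896 genes and 11 classes. Points of 1 library share its depth and free RNA, so these correlations are descriptions. Lgals3 was most like Soat1 (Pearson r = 0.864), an enzyme of cholesterol ester storage, Lyz2 (0.864), the lysozyme of myeloid cells, Cers6 (0.855), a ceramide synthase, Arap1 (0.839) and Lilrb4a (0.836), an inhibitory receptor of myeloid cells. Lgals1 was most like Uqcrh (0.869), Atp5d (0.855), Atp5c1 (0.842) and Atp5mpl (0.831), which encode parts of the mitochondrial respiratory chain and ATP synthase, and Chrac1 (0.829). Lgals9 was most like Sipa1 (0.907), H2-T23 (0.879), a non-classical MHC class I gene, Ly6e (0.871), an interferon-inducible surface protein, Tgfb1 (0.867), a cytokine, and B2m (0.846), the light chain of MHC class I. Lgals8 was most like Map4k4 (0.916), Ric8a (0.902), Mvb12a (0.896), Tmem168 (0.890) and Mycbp2 (0.889). Between pairs of the galectins r was 0.559 for Lgals1 and Lgals8, 0.357 for Lgals1 and Lgals3, and 0.271 for Lgals3 and Lgals8. It was 0.129 for Lgals8 and Lgals9, 0.028 for Lgals1 and Lgals9, and -0.027 for Lgals3 and Lgals9. These pairs were fixed beforehand, so values below those of genes picked as the highest of 7896 follow from that choice.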

How the data were processed

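Single cells of 4 spinal cord libraries, 1 per group, were analysed from the filtered UMI counts per gene and cell that the authors deposited, which per the file headers were made with Cell Ranger 6.0.1; the submitters' processing notes name mm10. Whether intronic or antisense reads were counted is not given in the sources used here. Barcodes with under 500 UMIs, under 200 genes or over 15% mitochondrial UMIs were dropped; scrublet in scanpy 1.11.5 (Python 3.11.15) removed 69, 42, 59 and 98 doublets in the library labelled CD8 KO, P301S hom at 33 weeks, P301S hom at 30 weeks and P301S neg, at an expected rate of 6%. Cells were clustered on 2000 variable genes, 30 components and Leiden resolution 1.0, and clusters were named from marker lists (at least 3 markers detected in 10% of cells). A cluster whose markers of a different lineage exceeded a ratio of 0.2 was left out as mixed. Macrophage-like cells were clustered again without galectin genes, at resolution 0.8.

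UMIs were summed per class and library, and ratios of CPM were formed with exact intervals, tested on simulated data. TMM factors came from edgeR 4.0.16. Gene lists were counted at 1.5-fold among genes with at least 20 UMIs over both libraries. Named genes were the 4 galectins, the 4 largest ratios of each list, and the 5 genes of highest Pearson r on log2(CPM + 5) for each member; other genes named beside these were chosen after their values were seen. The galectins and lists were chosen with earlier results of these data known. Alternatives were other cell filters, doublets kept, resolutions of 0.5 and 2.0, TMM scaling, cells of 1 sex, the mean of per-cell CPM, 1000 UMIs as the cell minimum, 50 UMIs as the gene minimum, and a pseudocount of 1 CPM.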

Additional observations from a re-analysis of the deposited data

Results flagged for a closer look

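The log2 ratio of Lgals1 for P301S hom at 30 weeks over P301S neg was 2.20 in macrophage-like cells and -4.02 in neutrophil-like cells, with intervals on opposite sides of 0; the difference between the classes was not tested. The neutrophil-like value rests on 2 UMIs in P301S hom at 30 weeks and 31 UMIs in 6 cells of P301S neg. The log2 ratio of Lgals8 for the same libraries was -0.61 in macrophage-like cells and 1.17 in monocyte-like cells, again with intervals on opposite sides of 0, and this difference was not tested either. The monocyte-like value rests on 21 UMIs in P301S hom at 30 weeks and 13 UMIs in P301S neg.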

How the results depend on the processing

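No ratio of a galectin in macrophage-like cells past its counting interval turned its sign under an alternative, except for Lgals9 in P301S hom over P301S neg (main value -0.31; 0.057 with TMM scaling) and Lgals3 in 33 over 30 weeks (main value 0.06; -0.053 in female cells and -0.039 as the mean of per-cell CPM). For P301S hom over P301S neg, TMM scaling gave 2.57 for Lgals1, 6.09 for Lgals3 and -0.24 for Lgals8. Female cells gave 1.71 for Lgals1 and 5.34 for Lgals3. The mean of per-cell CPM gave 1.73, 5.003, -0.31 and -0.18 for Lgals1, Lgals3, Lgals8 and Lgals9. For the library labelled CD8 KO against P301S hom at 30 weeks, Lgals3 was -0.25 with TMM scaling, and male cells over male cells of 33 weeks gave -0.70 for Lgals1 and -0.40 for Lgals3. The cause of these shifts was not tested. Male cells alone gave no value against P301S hom at 30 weeks, which held none, and cells of 1 sex gave none for the CD8 comparison at matched age. Other cell filters, kept doublets and other resolutions moved these macrophage-like values by less than their counting intervals, as did leaving out sub-clusters led by haemoglobin genes or of low UMI count, an alternative chosen after seeing the data. So chosen too, astrocyte-like cells without C1q UMIs gave 6.37 for Lgals3 and 5.88 for Lgals1 in place of 4.15 and 3.28, from only 3 and 1 UMIs in P301S neg. In endothelial-like cells, P301S hom over P301S neg gave 0.57 for Lgals3 and -0.74 for Lgals1 at resolution 0.5, in place of 3.26 and -0.02.

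With at least 50 UMIs a gene in place of 20, fewer genes were tested and counts past 1.5-fold were smaller. For the library labelled CD8 KO against P301S hom at 30 weeks they were 251 in place of 553 higher and 127 in place of 343 lower in macrophage-like cells, and 164 in place of 350 and 187 in place of 445 in endothelial-like cells. For 33 over 30 weeks they were 172 in place of 375 and 159 in place of 363 in macrophage-like cells, and 163 in place of 329 and 284 in place of 584 in endothelial-like cells. For P301S hom over P301S neg they were 310 in place of 547 and 499 in place of 775 in endothelial-like cells, and TMM scaling gave 2358 in place of 1340 higher and 2180 in place of 4267 lower in macrophage-like cells. With a pseudocount of 1 CPM, 3 of the 5 genes most like Lgals8 were the same, and 4 of 5 for the other galectins. No paired analysis was possible because each group was 1 library. One library per group, 2 pooled cords, sex that differs between libraries and free RNA limit every comparison.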

Other observations

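A cluster that stayed unnamed, led by Prss34, Elane and Mpo (genes of basophil and granulocyte precursors), had high levels of both Lgals1 and Lgals3 in every library. Lgals1 was 1009.9 CPM in the library labelled CD8 KO, 1019 CPM in P301S hom at 33 weeks, 905.5 CPM in P301S hom at 30 weeks and 881 CPM in P301S neg. Lgals3 was 1059, 970.2 and 970.1 CPM in the P301S hom libraries in that order and 1099.5 CPM in P301S neg. Among B cell-like cells, Lgals9 was highest in the cluster led by Vpreb3 and Top2a, at 507, 591 and 517 CPM in the P301S hom libraries in that order and 563 CPM in P301S neg, against 152 to 294 CPM over the class. In erythroid-like cells of P301S hom at 30 weeks, 57 Lgals3 UMIs were found in 9 cells, 27.0 CPM, against 3.40 CPM in P301S neg.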
